A study of Sorghum bicolor with 12 samples.

Results

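The transcriptomes of the sorghum genotypes IS22330 and IS20351 were compared in well-watered (WW) plants, which shows how the genotypes differed without drought. All transcripts with a mean RPKM (reads scaled for transcript length and library size) of at least 1 in WW plants of either genotype were taken, which gave 18483 of the 27989 transcripts in the deposited tables, from 17829 genes. At the edge of this threshold, Sb01g028290.1 was included at a mean RPKM of 0.145 in IS22330 and 1.00 in IS20351, and Sb02g044020.1 was left out at 0.999 in IS22330 and 0.970 in IS20351.

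Both genotypes are sorghum of the durra race, described by the study as drought tolerant (IS22330) and drought sensitive (IS20351). Plants grew in pots in the open field, 1 plant to a pot, and were harvested 42 days after emergence. The groups were IS22330 WW, IS20351 WW, IS22330 drought stressed (DS) and IS20351 DS, each with 3 libraries from separate biological replicates, 12 libraries in all. The target for WW plants was a fraction of transpirable soil water (FTSW) near 0.7, and DS plants were dried down to 0.2 and kept there until harvest. The study reported a higher FTSW for IS22330 WW than for IS20351 WW plants. A difference between the WW groups can therefore include one in soil water. The genotypes are each a single accession, so that a difference between them is a difference between these 2 lines and not between tolerant and sensitive sorghum. The labels call the tissue leaf, whereas the methods name the leaf meristem. Markers of meristem or of other cell types could not be checked by name, but transcripts of photosynthesis were among the most abundant of those with a name. In bulk tissue such as this, fewer cells of a type and less RNA per cell cannot be told apart.

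Libraries held 27352783 to 28294742 unique reads on transcripts in IS22330 WW and 27562579 to 28680141 in IS20351 WW plants. The deposited means carry no replicate number, so the letters a, b and c give the order of their totals. IS22330 DS library c stood apart from the other DS libraries: for the light reaction transcripts described below its median log2(RPKM + 0.1) was 7.20, against 5.55 and 5.37 in the other IS22330 DS libraries and 5.13 to 5.34 in IS20351 DS libraries, whereas the WW libraries lay between 5.82 and 7.82. Counts of transcripts that use DS plants are therefore also given without it. Reads of both genotypes were aligned to the reference genome of another sorghum line, BTx623, and only reads with a unique match were counted. A transcript whose sequence in 1 genotype is missing or far from the reference and a transcript that is not expressed there cannot be told apart, and near-identical gene copies are uncertain.

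Levels that differ between lines without stress are the constitutive part of a genotype difference, to which a response to drought is added. Crop lines are known to differ both by genes that are silent, altered or missing in a line and by genes that are read at different rates. Photosynthesis genes, which antenna proteins and photosystem subunits represent here, and genes of lipid and phenolic metabolism also follow light, age and water supply in leaves.

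Most transcripts had similar levels in the well-watered genotypes. Of the 18240 transcripts that could be tested, 15116 (82.9%) had a log2 ratio of IS22330 to IS20351 within 2-fold, with a median of 0.01 and quartiles of -0.32 and 0.38, and the median standard error of a ratio was 0.40. The test was the quasi-likelihood test of edgeR on the reads of each library, with Benjamini-Hochberg adjustment over 19024 transcripts. At an adjusted p under 0.05, 532 of these members were higher and 338 lower in IS22330, where the share of all tested transcripts was 2.84% higher and 1.89% lower. The stricter level asked for a difference of at least 4-fold and an adjusted p no higher than 0.001. There 104 were higher and 72 lower, beside 0.552% and 0.384% of all tested. In either direction these are 870 and 176 members, where 4.73% and 0.936% of all tested transcripts were called. The other 243 members were not tested. Most of these did not reach an RPKM of 1 in 3 libraries, and for 2 abundant ones the reads of each library could not be solved: the authors' mean RPKM was 14830.4 in IS22330 and 7448 in IS20351 WW plants for Sb01g013000.1, and 6886 in IS22330 and 6417 in IS20351 WW plants for Sb10g021330.1.

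By size alone, with no test, 855 members (4.63%) were at least 4-fold higher in the mean RPKM and 464 (2.51%) at least 4-fold lower. The libraries of the genotypes did not overlap in 648 of the 855 and 397 of the 464, where 13.0% and 9.66% of all tested transcripts did not overlap in these directions, and 410 and 249 were called at an adjusted p under 0.05. The same libraries chose these members by their means, so the counts only describe them.

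With Benjamini-Yekutieli adjustment, the method of the study, 38 members were called at the stricter level. The stricter count also rested on every WW library. It was 92, 87 and 61 without IS22330 WW library a, b or c, and 62, 94 and 74 without IS20351 WW library a, b or c, in place of 176. At an adjusted p under 0.05 there were 574 calls without IS20351 WW library a, in place of 870. Without IS22330 DS library c, which enters this comparison through the shared fit, there were 219 at the stricter level and 1117 at 0.05.

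**Figure D1:**
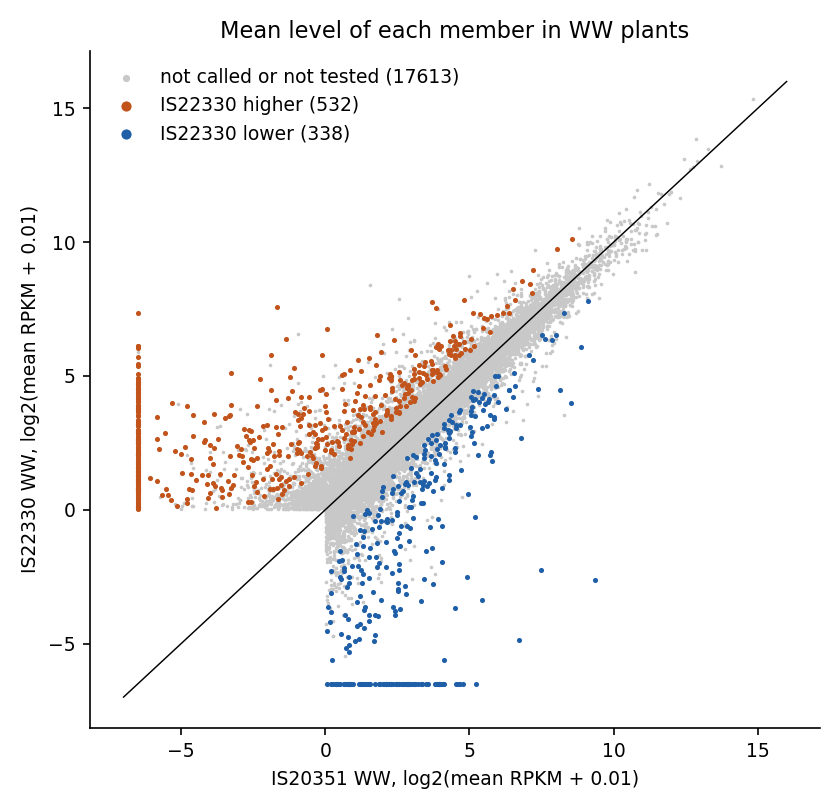
Mean level of each member in WW plants, log2(mean RPKM + 0.01), with IS22330 on the vertical and IS20351 on the horizontal axis and a line of equal levels. Orange points are the 532 members higher and blue points the 338 lower in IS22330 at an adjusted p under 0.05 (edgeR), and grey points are not called or not tested; called points form bands along the axes, where 1 genotype had no or few reads, and a cloud on either side of the line.

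The calls ranged from transcripts found in 1 genotype only to graded differences in strongly expressed ones. In 203 members (1.10%) no read was found in any IS20351 WW library, and 190 of them had reads in all 3 IS22330 WW libraries. Conversely, 110 members (0.595%) had no read in IS22330 WW plants, and all 110 had reads in all 3 IS20351 WW libraries. Both groups were members only through the genotype that had reads, which favours reads in all of its libraries. Their levels in the genotype that had reads were mostly low, with a median mean RPKM of 3.58 in IS22330 for the first group and of 4.17 in IS20351 for the second, but 47 and 19 of them reached 10. Transcripts without reads in 1 genotype were short, with median lengths of 798 and 799.5 bases, against 1429 bases over all members.

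Most of these transcripts were also without reads in the same genotype under drought. Of the 203 without a read in IS20351 WW plants, 184 (90.6%) had none in IS20351 DS plants either, and 171 of these had reads in all 3 IS22330 DS libraries. Of the 110 without a read in IS22330 WW plants, 92 (83.6%) had none in IS22330 DS plants, and 87 of these had reads in all 3 IS20351 DS libraries. Without IS22330 DS library c, these 4 counts were 184, 175, 94 and 89. The WW and DS libraries come from different plants. The choice of members by the genotype with reads also favours reads in its DS libraries. No share over all transcripts is set beside these counts, so they only describe the members.

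The transcripts with the largest fitted ratios by the rule for naming had no name in the sources used here. A fitted ratio against a group without reads depends on the prior count, so bounds are given instead, against a floor of 3 reads summed over the 3 libraries of the group at 0. Sb01g027550.1 on chromosome 1 had an RPKM of 172, 173 and 141 in IS22330 WW libraries and no read in the 3 IS20351 WW libraries, which makes it at least 12824-fold higher in IS22330 (adjusted p = 4.89e-05). In DS plants it had 276, 212 and 252 in IS22330 and 0, 0.0523 and 0 in IS20351. It was the most abundant transcript that IS20351 WW plants lacked, and its levels in IS22330 lay close together.

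Sb03g028600.1 followed with 84.1, 65.7 and 60.3 RPKM in IS22330 WW plants and no read in IS20351 WW plants, at least 3692-fold higher (adjusted p = 3.01e-05). Sb07g023750.1 had 34.1, 31.0 and 35.8 in IS22330 WW plants and no read in IS20351 WW plants, at least 2620.0-fold higher (adjusted p = 4.29e-05). Neither had a read in IS20351 DS plants, while IS22330 DS plants had 94.6, 101 and 83.3 for the first and 31.2, 23.3 and 31.8 for the second.

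In the other direction, the 3 transcripts with the largest fitted ratios, an order that rests on the prior count, included the neighbouring genes Sb05g022785 and Sb05g022790 on chromosome 5. Sb05g022785.1 had no read in IS22330 WW plants and 18.1, 13.7 and 16.3 RPKM in IS20351 WW plants, at least 1861-fold lower in IS22330 (adjusted p = 0.000172). Sb05g022790.1 had no read in IS22330 WW plants and 11.8, 9.38 and 12.3 in IS20351 WW plants, at least 1102-fold lower (adjusted p = 4.89e-05). Sb03g016083.1 had no read in IS22330 WW plants and 36.0, 22.2 and 19.0 in IS20351 WW plants, at least 819.9-fold lower (adjusted p = 7.52e-05). In these 3 transcripts the DS libraries of IS22330 held at most 0.0526 RPKM, against 8.38 to 36.0 in those of IS20351.

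Other transcripts were chosen after their values were seen, for their level. The most abundant of them was Sb07g024200.1, with 0.306, 0.148 and 0 RPKM in IS22330 WW plants against 694, 594 and 679 in IS20351 WW plants (log2 ratio -12.11, SE 1.01, adjusted p = 7.52e-05). Sb02g043260.1 had 0.136, 0.0986 and 0.361 in IS22330 WW plants against 162, 236 and 144 in IS20351 WW plants (log2 ratio -9.87, SE 0.57, adjusted p = 3.01e-05). Sb10g001190.1 had 84.7, 257 and 230.2 in IS22330 WW plants and 0.756, 0 and 0.145 in IS20351 WW plants (log2 ratio 9.18, SE 1.13, adjusted p = 0.00065). In these 3 transcripts a strongly expressed gene of 1 line was near the limit of detection in the other. In contrast to the first pair, Sb10g001190.1 was not near 0 in IS20351 DS plants, where it had 25.4, 26.8 and 2.87 RPKM, against 219, 205 and 65.6 in IS22330 DS plants.

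**Figure D2:**
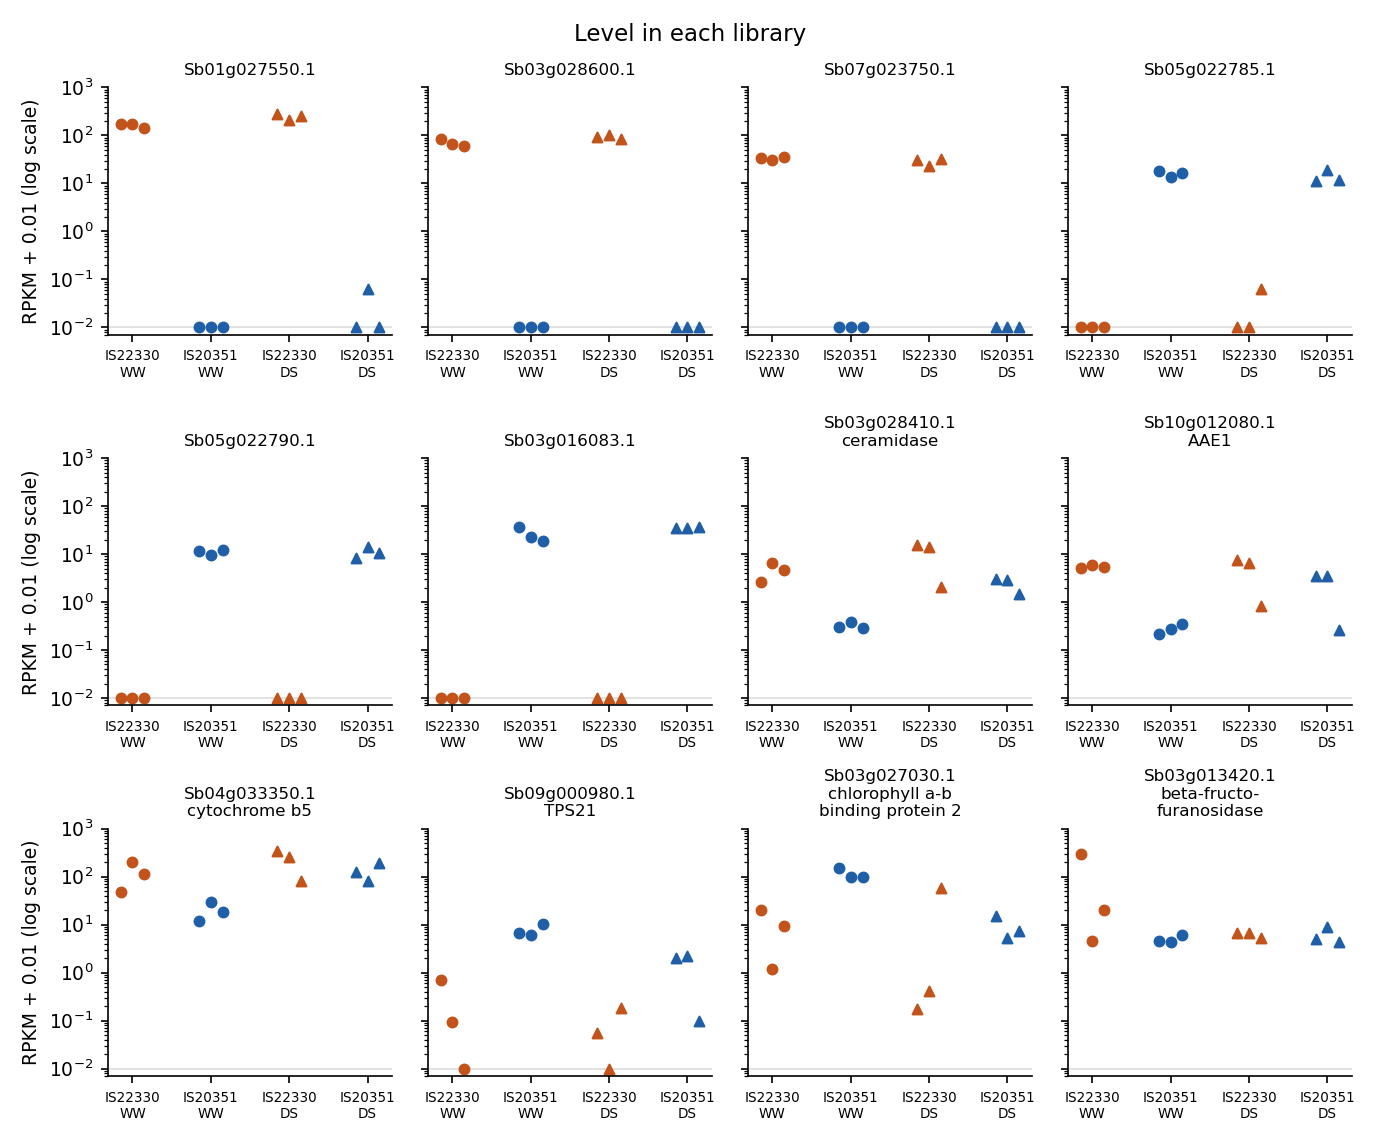
RPKM + 0.01 on a log scale for 12 transcripts in each of the 12 libraries, with IS22330 in orange and IS20351 in blue, WW libraries as circles and DS libraries as triangles. The transcripts with the largest ratios sit at the foot of the axis in 1 genotype under both water treatments. Among the annotated transcripts, the WW libraries of the genotypes overlap in the beta-fructofuranosidase and not in the others, and those of AAE1 lie close together within each genotype.

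Graded differences with small spread were found as well. Sb02g035960.1 had 51.6, 50.8 and 50.8 RPKM in IS22330 WW plants against 2.74, 2.53 and 3.20 in IS20351 WW plants (log2 ratio 4.11, SE 0.29, adjusted p = 4.07e-05). Sb05g025080.1 had 164, 209 and 185 in IS22330 WW plants against 10.6, 22.1 and 10.3 in IS20351 WW plants (log2 ratio 3.64, SE 0.46, adjusted p = 0.00078). Sb03g030300.1 had 456, 609 and 410.2 in IS22330 WW plants against 162, 163 and 119 in IS20351 WW plants (log2 ratio 1.67, SE 0.24, adjusted p = 0.00169). The smallest called differences among abundant transcripts were about 2-fold. Sb02g002750.1 had 179, 154 and 163 in IS22330 WW plants against 310.2, 309 and 318 in IS20351 WW plants (log2 ratio -0.99, SE 0.23, adjusted p = 0.0279), and Sb06g031060.1 had 253, 243 and 334 in IS22330 WW plants against 139.5, 131 and 159 in IS20351 WW plants (log2 ratio 0.88, SE 0.20, adjusted p = 0.0267). The calls of these last 2 transcripts were lost in 7 and 9 of the alternative analyses.

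Calls were made for transcripts, and the total of a gene was not tested. Of 669 genes with at least 2 tested transcripts, 48 had a called transcript, in 7 all tested transcripts were called, and 1 had transcripts called in both directions. In that gene, Sb09g020880, the first transcript had 0.296, 0.411 and 0.286 RPKM in IS22330 WW plants against 4.25, 7.20 and 4.27 in IS20351 WW plants (log2 ratio -4.04, SE 0.49, adjusted p = 0.000618). The second, Sb09g020880.2, had 13.6, 16.6 and 18.1 in IS22330 WW plants against 8.44, 7.87 and 6.57 in IS20351 WW plants (log2 ratio 1.01, SE 0.21, adjusted p = 0.0147), a call that was lost in 4 alternatives. How reads shared by both transcripts were assigned is not given in the sources used here.

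Called transcripts were not spread evenly over the genome. On chromosome 5, 105 of 906 tested transcripts (11.6%) were called at an adjusted p under 0.05, 55 higher and 50 lower in IS22330. On chromosome 8, 74 of 971 (7.62%) were called, 47 higher and 27 lower. On the other chromosomes and scaffolds together the share was 4.20%, with a highest value of 5.11% on chromosome 2 among the chromosomes and 6.58% among 152 transcripts on scaffolds. Members on chromosome 5 were also more often without reads in 1 genotype (5.05% of them) than those on any other chromosome, where it was 1.11 to 2.88%. Levels were lower on these 2 chromosomes, with a median log2 mean RPKM of 2.69 on chromosome 5 and 2.79 on chromosome 8, against 2.96 to 3.35 on the other chromosomes, and the part of level in the shares was not tested. In every alternative analysis the share on chromosome 5 was above that of the other chromosomes, between 5.85% (with Benjamini-Yekutieli adjustment) and 16.2% (with DESeq2).

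**Figure D3:**
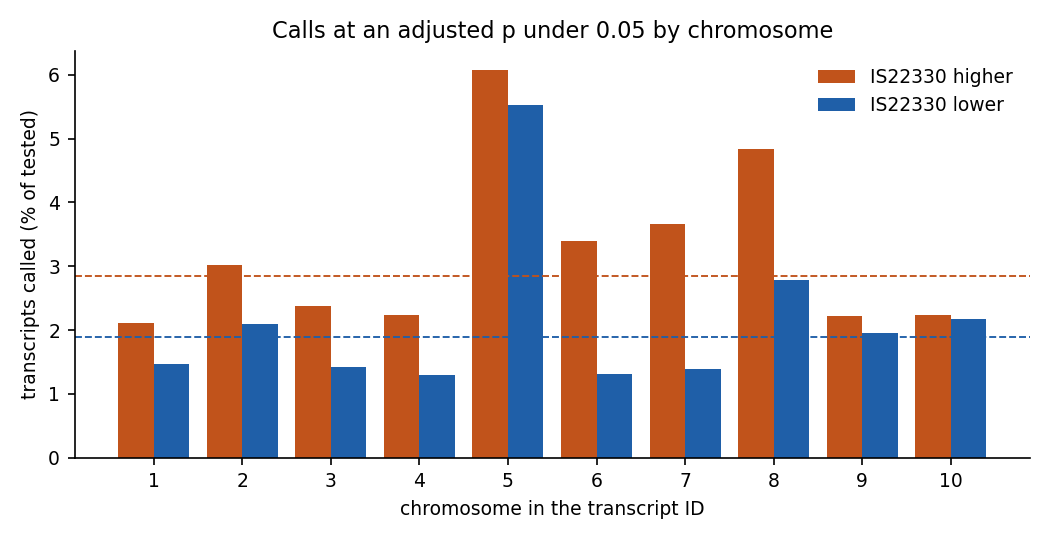
Percent of tested transcripts on each chromosome called higher (orange) or lower (blue) in IS22330 WW than in IS20351 WW plants at an adjusted p under 0.05, with dashed lines at the share over all tested transcripts, 2.84% higher and 1.89% lower. Chromosome 5 has the highest bars in both directions, followed by chromosome 8.

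Called genes also lay next to each other. In the order of gene IDs, which are numbered along each chromosome, 18.6% of the tested neighbours of a called gene were called themselves, against 4.15% of the neighbours of a gene that was not called. Of the neighbouring pairs in which both genes were called, 124 had the same direction and 39 the opposite. Of the 534 genes called higher in IS22330, 141 fell in 60 runs of at least 2 consecutive tested genes, and of the 346 called lower, 75 fell in 32 runs.

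The longest run was on chromosome 8, where 8 consecutive tested genes from Sb08g002340 to Sb08g002410 were called higher in IS22330. In IS22330 WW plants their RPKM lay between 0.932 and 30.01. In 6 of them no IS20351 WW library had a read, and in Sb08g002350.1 and Sb08g002410.1 the highest value in an IS20351 WW library was 0.0335. Of these 8, the highest mean RPKM in IS22330 WW plants was that of Sb08g002340.1, with 12.1, 22.3 and 30.01 in IS22330 WW plants and no read in IS20351 WW plants, at least 592.8-fold higher (adjusted p = 0.000343). The lowest was that of Sb08g002370.1, with 0.932, 1.68 and 1.42 in IS22330 WW plants and no read in IS20351 WW plants, at least 20.8-fold higher (adjusted p = 0.019), a call lost in 5 alternatives.

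Another run of 5 genes on chromosome 2 was called higher in IS22330. In Sb02g021550.1, Sb02g021560.1 and Sb02g021570.1 the RPKM was between 2.37 and 6.87 in IS22330 WW libraries with no read in IS20351 WW libraries, and likewise in Sb02g021535.1, with 2.93, 0.569 and 1.92 in IS22330 WW plants. Sb02g021770.1, at the end of this run, was a graded difference with 9.29, 8.84 and 5.52 in IS22330 WW plants against 2.35, 0.815 and 1.30 in IS20351 WW plants (log2 ratio 2.34, SE 0.45, adjusted p = 0.0109). On chromosome 5, the 4 consecutive tested genes from Sb05g004410 to Sb05g004470 were called lower, with no read in IS22330 WW plants and 1.202 to 6.38 RPKM in IS20351 WW plants. The transcripts of all 3 runs were picked for being in a run.

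A further pair of neighbours on chromosome 8 differed in size but not in direction. Sb08g020640.1 had 0.0717, 0 and 0 RPKM in IS22330 WW plants against 122, 107 and 86.2 in IS20351 WW plants (log2 ratio -11.95, SE 0.83, adjusted p = 3.85e-05). Sb08g020650.1 had 19.2, 20.3 and 28.0 in IS22330 WW plants against 147, 209.3 and 142 in IS20351 WW plants (log2 ratio -2.95, SE 0.46, adjusted p = 0.00288). The pair was chosen with its values known.

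Names were at hand for 174 transcripts, which the study had listed by pathway after matching them to rice, maize or Arabidopsis genes. The study chose them on these samples for their response to drought, so they are no independent sample of their pathways. Of these, 138 were members and 133 were tested, 56 with a ratio above and 77 below 1, with a median log2 ratio of -0.27. At an adjusted p under 0.05, 3 of the 133 were higher in IS22330 and 0 were lower, beside 2.84% and 1.89% of all tested. By unadjusted p, 19 were under 0.05, beside 2752 of all 19024 tested transcripts. In the edgeR fit of the 6 WW libraries alone 42 of the 133 had an unadjusted p under 0.05. No share over all tested transcripts is set beside this count, so it only describes the list. In that fit 2 were called higher and 1 lower at an adjusted p under 0.05. With limma 3 were higher and 1 lower, and with DESeq2 8 were higher and 1 lower. At the stricter level edgeR and limma called 0 of the 133 and DESeq2 called 4. In 12 of the 133 all 3 IS22330 WW libraries lay above all IS20351 WW libraries and in 23 below, beside 13.0% and 9.66% of all tested transcripts. Transcripts of the list described here that are not the 2 with the smallest p of their pathway were chosen after their values were seen.

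The 3 called transcripts were a ceramidase, an acyl activating enzyme and a cytochrome b5. The ceramidase Sb03g028410.1, whose family splits ceramide into a long-chain base and a fatty acid, had 2.64, 6.53 and 4.61 RPKM in IS22330 WW plants (4.59 ± 1.94, SD, n = 3) against 0.295, 0.366 and 0.283 in IS20351 WW plants (0.315 ± 0.0448, SD, n = 3). The log2 ratio was 3.80 (SE 0.65, adjusted p = 0.00501), and every IS22330 library was above every IS20351 library. The call was lost only with Benjamini-Yekutieli adjustment (adjusted p = 0.0523). In DS plants the level was 15.3, 13.96 and 2.02 in IS22330 and 3.04, 2.85 and 1.49 in IS20351, and the log2 ratio of 2.10 did not pass the test (adjusted p = 0.0613) with library c and passed without it (adjusted p = 0.0032).

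Acyl activating enzyme 1 (AAE1), Sb10g012080.1, of a family that joins carboxylic acids to coenzyme A, had 5.13, 5.96 and 5.32 RPKM in IS22330 WW plants (5.47 ± 0.435, SD, n = 3) against 0.209, 0.263 and 0.341 in IS20351 WW plants (0.271 ± 0.0664, SD, n = 3). The log2 ratio was 4.25 (SE 0.92, adjusted p = 0.0207), from libraries that lay close together in both genotypes. The call was lost in 6 alternatives, among them the fits without IS20351 WW library a (adjusted p = 0.104), b (0.084) or c (0.0755) and without IS22330 WW library b (0.0501) or c (0.0519), and the adjusted p ranged from 8.82e-06 to 0.216 over all alternatives. In DS plants it had 7.48, 6.55 and 0.815 in IS22330 and 3.48, 3.55 and 0.250 in IS20351. The nearby Sb10g012093.1, which has no name, went the other way, with 1.60, 1.40 and 2.09 in IS22330 WW plants against 12.3, 7.12 and 11.2 in IS20351 WW plants (log2 ratio -2.65, SE 0.40, adjusted p = 0.00253). It was chosen for its place beside AAE1.

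Cytochrome b5 isoform E, Sb04g033350.1, a haem protein that passes electrons to membrane enzymes such as desaturases, was listed with the antioxidant genes. It had 47.8, 198 and 112 RPKM in IS22330 WW plants (119 ± 75.2, SD, n = 3) against 11.7, 30.1 and 18.2 in IS20351 WW plants (20.0 ± 9.31, SD, n = 3). The groups did not overlap, but library a of IS22330 was less than 2-fold above library b of IS20351. The log2 ratio of 2.52 (SE 0.64, adjusted p = 0.046) was at the edge of the threshold and lost its call in 10 alternatives. In DS plants the genotypes overlapped, with 339.8, 261 and 82.4 in IS22330 and 126, 80.6 and 193 in IS20351.

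**Figure D4:**
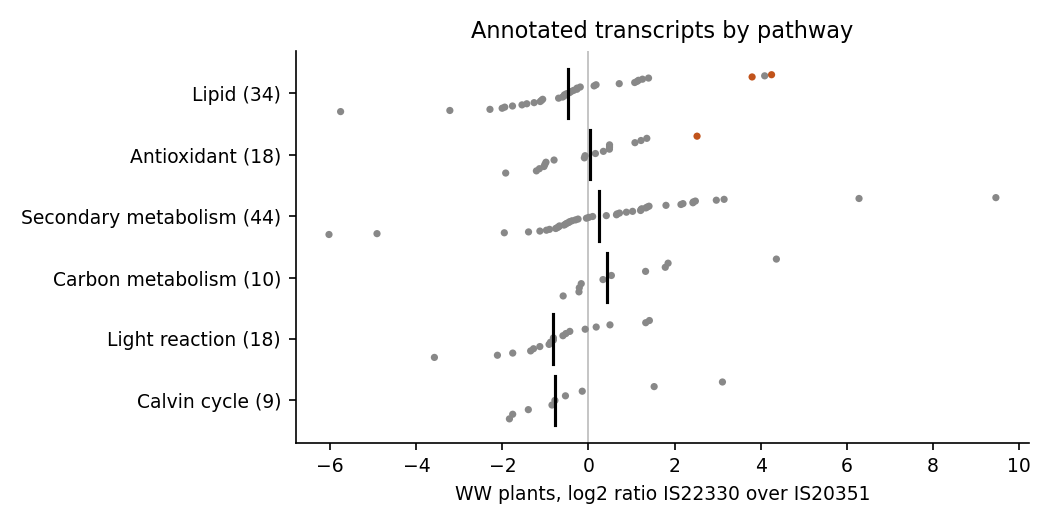
Log2 ratio of IS22330 WW to IS20351 WW for each tested transcript of the 6 pathways in the study's list, as points with a black bar at the median of each row. The 3 orange points, a cytochrome b5 in the antioxidant and 2 in the lipid row, had an adjusted p under 0.05, and the medians of the light reaction and Calvin cycle rows are -0.82 and -0.78.

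In the light reaction list, which covers the proteins that harvest light and carry electrons, 0 of 18 tested transcripts passed the test in edgeR, limma or DESeq2, and 1 had an unadjusted p under 0.05 in edgeR. That fit takes its spread from the DS libraries as well. In the edgeR fit of the 6 WW libraries alone, 10 of the 18 had an unadjusted p under 0.05, among them 6 of 8 antenna proteins. Of all 133 tested transcripts of the study's list, 42 did. No share over all tested transcripts is set beside these counts, so they only describe the list. None of the 18 passed an adjusted p of 0.05 in that fit. Nevertheless 14 of 18 had a negative ratio, the median was -0.82, and in 9 of 18 all IS22330 WW libraries lay below all IS20351 WW libraries, beside 9.66% of all tested. Of the 8 antenna proteins, which bind the chlorophyll that captures light, all 8 had a negative ratio, with a median of -1.20. IS22330 WW library b was lowest: the median log2(RPKM + 0.1) over the list was 6.95, 5.82 and 6.24 in IS22330 WW libraries a, b and c against 7.82, 7.25 and 7.19 in IS20351 WW libraries. Without library b the median log2 ratio of the list was -0.61.

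The antenna protein LHCB4, Sb02g036260.1, of photosystem II had 909, 556 and 987 RPKM in IS22330 WW plants against 1637, 1916 and 1548 in IS20351 WW plants (log2 ratio -1.13, SE 0.57, adjusted p = 0.414). LHCB5, Sb05g007070.1, had 1542, 729 and 1473 in IS22330 WW plants against 2065, 2448 and 2040.5 in IS20351 WW plants (log2 ratio -0.88, adjusted p = 0.728). In both, the libraries of the genotypes did not overlap, yet neither difference passed the test. PSI-O, Sb06g016090.1, a subunit of photosystem I, had 867, 493 and 905 in IS22330 WW plants against 1324, 1249 and 1211 in IS20351 WW plants (log2 ratio -0.82, adjusted p = 0.543). The subunit R of photosystem II (PSBR), Sb02g002830.1, did not share this direction: it had 3.09, 51.0 and 12.6 in IS22330 WW plants against 1.40, 21.4 and 1.77 in IS20351 WW plants (log2 ratio 1.42, adjusted p = 0.784), and its ratio fell to -0.14 without IS22330 WW library b.

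The 2 light reaction transcripts with the smallest p also had negative ratios. LHCA2 transcript Sb02g037410.3, an antenna protein of photosystem I, had 1.07, 0.439 and 1.03 RPKM in IS22330 WW plants against 2.07, 6.41 and 2.04 in IS20351 WW plants (log2 ratio -2.12, SE 0.76, adjusted p = 0.188). Chlorophyll a-b binding protein 2, Sb03g027030.1, had 20.1, 1.18 and 9.31 in IS22330 WW plants against 153, 96.6 and 96.6 in IS20351 WW plants (log2 ratio -3.58, SE 1.68, adjusted p = 0.365). In the edgeR fit of the 6 WW libraries alone the adjusted p was 0.115 for Sb02g037410.3 and 0.0637 for Sb03g027030.1. Sb03g027030.1 passed 0.05 in 1 alternative.

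The Calvin cycle, in which carbon dioxide is fixed into sugar, had 7 of 9 ratios negative with a median of -0.78, and 0 of the 9 passed the test in edgeR, limma or DESeq2, with 1 at an unadjusted p under 0.05 in edgeR. With the 6 WW libraries alone 3 of the 9 had an unadjusted p under 0.05 in edgeR, beside 42 of the 133 in the study's list, and 0 passed the adjusted level. The small chain of RuBisCO, the enzyme that fixes carbon dioxide, was at 1293, 642 and 1016 RPKM in IS22330 WW plants against 1632, 1804 and 1614 in IS20351 WW plants (Sb05g003480.1, log2 ratio -0.85, adjusted p = 0.746). CP12-2, Sb01g037510.1, a small protein that regulates the cycle, had 19.5, 90.4 and 42.1 in IS22330 WW plants against 9.82, 31.3 and 10.1 in IS20351 WW plants (log2 ratio 1.53, adjusted p = 0.497), so that library b was the highest of IS22330 here and the lowest for RuBisCO. The 2 with the smallest p were Sb01g021920.1, named chitinase 2 and thus not by its name an enzyme of the cycle, with 3.10, 2.01 and 1.21 in IS22330 WW plants against 13.2, 5.58 and 2.92 in IS20351 WW plants (log2 ratio -1.84, adjusted p = 0.28), and a transcript of glyceraldehyde-3-phosphate dehydrogenase, Sb06g018880.6, with 0.965, 1.03 and 0.833 in IS22330 WW plants against 1.30, 6.85 and 1.12 in IS20351 WW plants (log2 ratio -1.76, adjusted p = 0.36).

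Of the 34 tested lipid transcripts, 2 were called, the ceramidase and AAE1, and 23 had a negative ratio. The median over the 34 was -0.47, and -0.16 without IS22330 WW library b. Enzymes of plastid membrane lipids had negative ratios. The galactolipid synthase MGD2, Sb07g027910.1, had 0.357, 0.109 and 0 RPKM in IS22330 WW plants against 4.50, 0.617 and 18.9 in IS20351 WW plants (log2 ratio -5.76, SE 1.95, adjusted p = 0.162), and the sulfolipid synthase SQD2, Sb03g006480.1, had 47.3, 5.44 and 4.28 in IS22330 WW plants against 129, 30.1 and 339 in IS20351 WW plants (log2 ratio -3.22, SE 1.48, adjusted p = 0.353). Both varied by more than 4-fold between IS20351 WW libraries and neither passed the test.

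Among the enzymes that set chain length and double bonds, the directions differed. The plastid desaturase FAD6, Sb07g021640.1, had 194, 134 and 122 RPKM in IS22330 WW plants against 357, 246 and 313 in IS20351 WW plants (log2 ratio -1.09, adjusted p = 0.488). FAD8, Sb08g000460.1, a plastid desaturase that makes trienoic fatty acids, had 0.858, 2.72 and 3.27 in IS22330 WW plants against 0, 0.351 and 0.0248 in IS20351 WW plants (log2 ratio 4.09, SE 1.24, adjusted p = 0.106). The thioesterase FATB, Sb10g023190.1, which frees fatty acids from their carrier in the plastid, had 214, 77.5 and 104 in IS22330 WW plants against 36.0, 68.1 and 39.1 in IS20351 WW plants (log2 ratio 1.40, SE 0.50, adjusted p = 0.188). In each of the 3 the libraries of the genotypes did not overlap, and none passed the test. These 3 are not typical of the 10 tested desaturases, thioesterases and elongases, of which 7 overlapped and whose median log2 ratio was -0.23. Of all tested transcripts, 13.0% did not overlap with IS22330 higher and 9.66% with IS22330 lower.

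The antioxidant list had 9 positive and 9 negative ratios among 18 tested and a median of 0.04. This balance rested on IS22330 WW library b, without which the median was -0.54. Beside cytochrome b5, the transcript with the smallest p was a thioredoxin, Sb06g023440.1, of a family that reduces disulfide bonds in other proteins, with 20.7, 28.9 and 30.8 RPKM in IS22330 WW plants against 8.61, 14.1 and 10.3 in IS20351 WW plants (log2 ratio 1.22, SE 0.59, adjusted p = 0.381). Enzymes that remove peroxide and superoxide had ratios of either sign, and none passed the test. Peroxiredoxin-5, Sb04g006270.1, had 101, 59.6 and 58.5 in IS22330 WW plants against 139, 148 and 172 in IS20351 WW plants (log2 ratio -1.14, adjusted p = 0.714). An ascorbate peroxidase, Sb06g027520.2, had 4.20, 1.76 and 2.55 in IS22330 WW plants against 8.46, 5.35 and 4.96 in IS20351 WW plants (log2 ratio -1.21, adjusted p = 0.714), and a superoxide dismutase, Sb10g002970.1, had 23.2, 12.3 and 15.9 in IS22330 WW plants against 29.3, 25.8 and 41.4 in IS20351 WW plants (log2 ratio -0.99, adjusted p = 0.712). With a positive ratio, another ascorbate peroxidase, Sb06g001970.1, had 1.86, 6.21 and 1.65 in IS22330 WW plants against 1.97, 2.42 and 2.30 in IS20351 WW plants (log2 ratio 0.49, adjusted p = 0.887), with overlapping libraries.

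In secondary metabolism, which makes terpenes, phenolics and other compounds that are not needed for growth itself, 0 of 44 tested transcripts passed the test in edgeR. Of the 44, 10 had an unadjusted p under 0.05, beside 2752 of all 19024 tested transcripts. With limma 0 were higher and 1 lower, and with DESeq2 3 were higher and 1 lower. The 7 tested terpene synthases ranged from -6.03 to 6.29 in log2 ratio. Terpene synthase 21, Sb09g000980.1, whose namesake makes sesquiterpenes in Arabidopsis, had 0.709, 0.0858 and 0 RPKM in IS22330 WW plants against 6.60, 5.94 and 10.5 in IS20351 WW plants (log2 ratio -4.91, SE 1.32, adjusted p = 0.0635). All IS22330 libraries lay below all IS20351 libraries, and the transcript passed 0.05 in 6 alternatives, among them the fit of the 6 WW libraries alone (adjusted p = 0.0467), limma (0.011) and DESeq2 (0.00129).

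Several terpene synthases were high in a single IS22330 library. Terpene synthase 6, Sb07g005130.1, had 35.5, 0.194 and 0.431 RPKM in IS22330 WW plants against 0, 0.258 and 0.170 in IS20351 WW plants (log2 ratio 6.29, SE 1.96, adjusted p = 0.118). Terpene synthase 14, Sb04g001810.1, had 151, 4.60 and 21.01 in IS22330 WW plants against 10.6, 4.95 and 14.2 in IS20351 WW plants (log2 ratio 2.48, adjusted p = 0.317). In both, the ratio came from library a, and the other 2 libraries of IS22330 were among the IS20351 values or within about 2-fold of them. Terpene synthase 10, Sb07g004485.1, had 17.99, 4.08 and 12.1 in IS22330 WW plants against 3.05, 2.61 and 1.64 in IS20351 WW plants (log2 ratio 2.15, adjusted p = 0.408), and here the libraries did not overlap.

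The 6 tested transcripts grouped under terpenoid precursors and carotenoids, the pigments that protect chlorophyll, all had negative ratios with a median of -0.94. Among them, Sb10g031020.1 and Sb10g031020.2 are of the same phytoene synthase gene, and Sb02g039970.1 is named only as an oxidoreductase. Of the 6, 0 passed the test in edgeR, limma or DESeq2, with 0 at an unadjusted p under 0.05. With the 6 WW libraries alone 2 of the 6 transcripts had an unadjusted p under 0.05 in edgeR, beside 42 of the 133 in the study's list, and 0 passed the adjusted level. Lycopene epsilon cyclase, Sb03g026020.1, which leads toward lutein, had 35.3, 18.6 and 21.2 RPKM in IS22330 WW plants against 60.3, 40.8 and 55.2 in IS20351 WW plants (log2 ratio -1.13, adjusted p = 0.523). Phytoene synthase, Sb10g031020.1, the first step of carotenoid synthesis, had 1.23, 0.109 and 1.21 in IS22330 WW plants against 2.10, 2.18 and 2.05 in IS20351 WW plants (log2 ratio -1.39, adjusted p = 0.761).

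The 11 tested transcripts grouped here as enzymes of lignin and flavonoids, the phenolic compounds of cell walls and pigments, all had log2 ratios above 0 with a median of 1.21. Not all are such enzymes by name: Sb03g039530.1 and Sb10g022440.1 are named L-ascorbate oxidases and Sb08g011530.1 a copper ion binding protein. In none of the 11 did the libraries of the genotypes separate, and without IS22330 WW library b the median was 0.24. Cinnamoyl-CoA reductase CCR1, which opens the branch to lignin, was high in library a of IS22330 in 1 copy (Sb04g005510.1), with 42.3, 2.27 and 8.15 RPKM in IS22330 WW plants against 3.67, 2.94 and 2.67 in IS20351 WW plants (log2 ratio 2.43, SE 0.89, adjusted p = 0.206). Outside that group, a tyrosine decarboxylase, Sb01g022730.1, an enzyme that makes tyramine from tyrosine, had 3.37, 5.31 and 4.00 in IS22330 WW plants against 1.25, 0.735 and 0.273 in IS20351 WW plants (log2 ratio 2.44, SE 1.03, adjusted p = 0.295).

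A group of neighbouring genes on chromosome 9, some of them listed as O-methyltransferases (enzymes that add a methyl group to phenolic compounds), showed how unevenly such transcripts can be distributed between plants of 1 genotype. Sb09g025540.1 had 174, 11.6 and 53.5 RPKM in IS22330 WW plants against 3.76, 8.17 and 13.3 in IS20351 WW plants (log2 ratio 3.15, SE 1.02, adjusted p = 0.138). Sb09g025510.1 had 0.391, 45.5 and 0.243 in IS22330 WW plants against 0.0554, 0 and 0 in IS20351 WW plants (log2 ratio 9.47, SE 3.01, adjusted p = 0.127). The neighbour Sb09g025520.1, without a name and too uneven to be tested, had 0.316, 178 and 0 in IS22330 WW plants and no read in IS20351 WW plants, and in DS plants it had 0, 0.315 and 400.2 in IS22330 and no read in IS20351. The library with the high value thus differed between genes a few positions apart: library a for Sb09g025540.1 and library b for the other 2. Sb09g025550.1, at the end of the group, had 17.8, 0.0995 and 4.47 in IS22330 WW plants and no read in IS20351 WW plants (adjusted p = 0.146), whereas Sb09g025500.1, at its start, had 6.59, 1.63 and 5.24 in IS22330 WW plants against 4.71, 7.61 and 1.72 in IS20351 WW plants (log2 ratio -0.13, adjusted p = 0.961; 0.26 without IS22330 WW library b and 0.40 without IS20351 WW library b). Neighbouring copies of this family may share sequence, which the counting of unique reads could split unevenly.

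In carbon metabolism, 0 of 10 tested transcripts passed the test in edgeR, with 1 at an unadjusted p under 0.05, 0 called by limma and 1 by DESeq2. The largest ratio came from 1 library. A beta-fructofuranosidase, Sb03g013420.1, an invertase that splits sucrose into glucose and fructose, had 301, 4.49 and 20.4 RPKM in IS22330 WW plants against 4.61, 4.31 and 6.00 in IS20351 WW plants (log2 ratio 4.37, SE 1.15, adjusted p = 0.0581). Without library a, the other IS22330 libraries lay on either side of the highest IS20351 library, although DESeq2 called it (adjusted p = 0.00011). Sucrose synthase 2, Sb01g035890.1, which splits sucrose by another route, was 26.8, 54.0 and 48.1 in IS22330 WW plants against 14.01, 15.8 and 19.3 in IS20351 WW plants, without overlap (log2 ratio 1.33, SE 0.62, adjusted p = 0.362). The granule-bound starch synthase Sb02g009870.1, which builds amylose, had 442, 194 and 299 in IS22330 WW plants against 451, 452 and 431 in IS20351 WW plants (log2 ratio -0.59, adjusted p = 0.815).

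The spread within each genotype bears on all of these values. Over the members, the median coefficient of variation between libraries was 26.0% in IS22330 WW and 24.1% in IS20351 WW plants. Pairs of libraries correlated across 18481 members (log2(RPKM + 0.1), Pearson's r) at 0.871 to 0.932 within IS22330 WW, 0.915 to 0.966 within IS20351 WW and 0.804 to 0.852 between the genotypes, where transcripts are not independent. IS22330 WW library b stood closer to IS22330 DS libraries a and b (r of 0.915 and 0.925) than to IS22330 WW library a (0.871), and was at 0.928 with IS22330 WW library c. List medians that moved without library b can therefore reflect that library as well as the genotype. Values that stood alone were more often in IS22330: 21 members were at least 10-fold higher in IS22330 WW library a than in the other 5 WW libraries and 11 in library b, against 1 and 8 in IS20351 WW libraries a and b and 0 in both libraries c. Library b of IS22330 was at least 10-fold below the other 5 in 23 members, against 1 to 5 in each of the others.

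Calls were more frequent among weakly than among strongly expressed transcripts. Of tested members with a mean RPKM between 1 and 3, 6.21% were called at an adjusted p under 0.05, as were 2.54% of those at 100 or more. The median standard error of a log2 ratio was 0.61 between 1 and 3 and 0.36 at 100 or more.

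Most of the called differences between WW plants had the same direction in DS plants, which are separate plants. Of the 541 tested transcripts called higher in IS22330 WW plants, 471 (87.1%) had all IS22330 DS libraries above all IS20351 DS libraries, where 9.05% of all tested transcripts did, and 512 (94.6%) when IS22330 DS library c was left out, beside 18.1%. Of the 359 called lower, 329 (91.6%) had all IS22330 DS libraries below, beside 10.6% of all tested, and 335 (93.3%) without library c, beside 14.9%. The median log2 ratios in WW and DS plants were 4.38 and 4.06 for the first group and -4.04 and -3.81 for the second. At the stricter level all 105 and all 73 were separated in DS plants in the same direction, with and without library c. Calls at that level need little spread in a fit that takes in the DS libraries, so these counts only describe them. Of the members called higher, 168 had no read in IS20351 WW plants (69 at the stricter level). Of those called lower, 92 had none in IS22330 WW plants (40 at the stricter level). Their choice by the genotype with reads also favours reads in its DS libraries. The fit shares its estimate of spread between WW and DS libraries, so the calls were repeated with the 6 WW libraries alone: 420 of the 512 transcripts then called higher (82.0%) and 292 of the 376 called lower (77.7%) were separated in the same direction in DS plants, from calls that took in 2.69% and 1.98% of all tested. Without IS22330 DS library c these were 470 (91.8%) and 328 (87.2%).

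**Figure D5:**
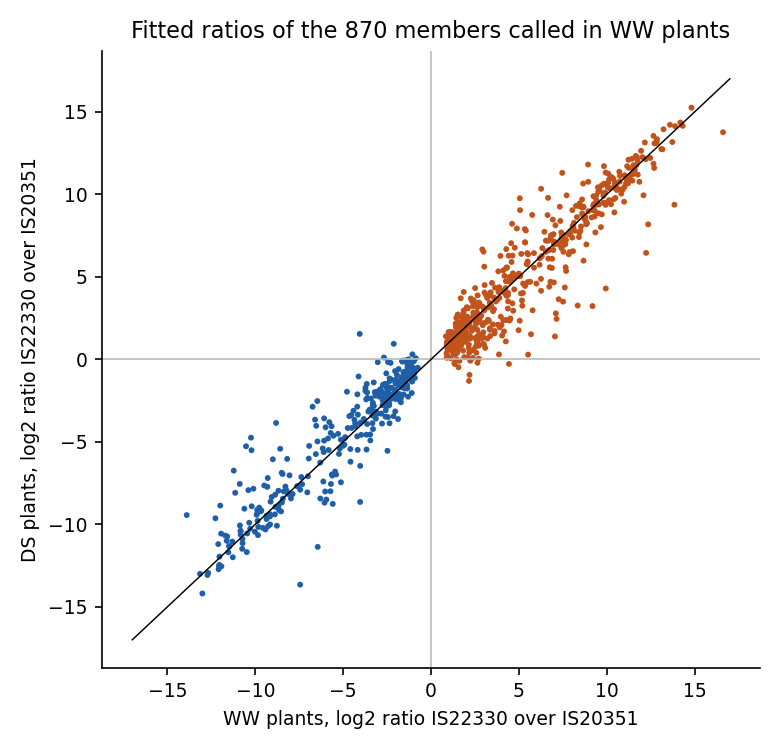
Fitted log2 ratio of IS22330 to IS20351 in DS plants (vertical axis) against that in WW plants (horizontal axis) for the 870 members called in WW plants at an adjusted p under 0.05, higher in orange and lower in blue, with a line of equal ratios. Most points lie near the line, and the largest ratios belong to transcripts without reads in 1 genotype, whose size depends on the prior count.

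A transcript with the opposite difference in DS plants was rare. Sb04g005350.1 was the only 1 of the 900 calls whose DS libraries were separated the other way, with 25.0, 18.6 and 15.6 RPKM in IS22330 WW plants against 1.44, 6.19 and 4.99 in IS20351 WW plants, and 14.4, 10.3 and 4.37 in IS22330 DS plants against 30.3, 20.1 and 23.2 in IS20351 DS plants. When IS22330 DS library c was left out, 2 of the 900 were separated the other way. The WW call of Sb04g005350.1 (log2 ratio 2.16, SE 0.52, adjusted p = 0.0349) was lost in 10 alternatives. The difference between the genotype ratios in DS and WW plants did not pass an adjusted p under 0.05 for any transcript in edgeR (0 of 19024, with 1131 at an unadjusted p under 0.05 and a smallest adjusted p of 0.407), nor without IS22330 DS library c (0, with 915 at an unadjusted p under 0.05 and a smallest adjusted p of 0.0744). In 1610 tested transcripts, called or not, the libraries were separated in the same direction in WW and in DS plants, and in 61 they were separated in opposite directions. Without IS22330 DS library c these were 2326 and 105.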

How the data were processed

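RNA of 12 libraries (3 biological replicates of each genotype and water treatment) was sequenced on an Illumina GAIIx. The authors mapped the reads with SOAPaligner/SOAP2, allowing 5 mismatches, to the sorghum genome of Ensembl Plants release 20 and kept uniquely mapped reads per transcript. The expected counts that the authors deposited are group means of these reads over 3 libraries. The deposited RPKM values were likewise computed for each library and then averaged by the authors, and a library without reads had entered as 0.001. The whole reads of each library were solved from both means for 27987 of 27989 transcripts, a step that was tested on simulated data.

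edgeR 4.0.16 (R 4.3.3) was used for the quasi-likelihood test, with the 4 groups of all 12 libraries in 1 fit, TMM scaling and 0.125 as the prior count. Tested were 19024 transcripts that reached an RPKM of 1 in 3 libraries or more. The biological coefficient of variation common to them was 0.464. Benjamini-Hochberg adjustment was over all tested transcripts. Calls were made at an adjusted p under 0.05 and at a stricter level, an adjusted p no higher than 0.001 and a log2 ratio of 2 or more in size, limits that the study used with Benjamini-Yekutieli adjustment. The SE is the size of the log2 ratio over the square root of F. Libraries of 2 genotypes were called separated, or not overlapping, where all RPKM values of a genotype were above all of the other.

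Alternatives were DESeq2 1.42.0, limma 3.58.1 on log2(RPKM + 0.1), RLE scaling, other RPKM minimums, a prior count of 2, Benjamini-Yekutieli adjustment, 1 transcript a gene, the 6 WW libraries alone, other thresholds, and each library left out. Fits without IS22330 DS library c of the DS difference, and the selection by WW libraries alone for it, were added after seeing the data. Python 3.11.15 (pandas 2.3.3, numpy 2.4.6, matplotlib 3.10.9) was used for tables and plots.

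Named transcripts were, by rule, the 3 highest and 3 lowest ratios at the stricter level without an annotation, annotated transcripts called at that level (0), and the 2 with the smallest p in each of 6 pathways, and all others were chosen after their values were seen. The members and lists were chosen with earlier results of these data known. None of the transcript IDs matched the reference gene table (0 matches), so 34 lists to be filled by gene description were void, and names come from the study's list of 174 transcripts. Values that cover 3 libraries measure the spread between 3 biological replicates. Sequences, splicing and gene ontology were not analysed here.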

Additional observations from a re-analysis of the deposited data

Results flagged for a closer look

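The transcript Sb09g005480.1, named 10-deacetylbaccatin III acetyltransferase (an enzyme name from taxane synthesis in yew) in the study's list, had all IS22330 libraries above those of IS20351 in WW plants and all below them in DS plants. It had 8.14, 5.53 and 8.30 RPKM in IS22330 WW plants against 2.78, 3.84 and 3.64 in IS20351 WW plants (log2 ratio 1.02, SE 0.35, adjusted p = 0.17). In DS plants it had 4.39, 10.2 and 2.92 in IS22330 against 16.4, 14.4 and 11.3 in IS20351 (log2 ratio -1.26, SE 0.35, adjusted p = 0.0625). The DS ratio minus the WW ratio was -2.28 on the log2 scale (SE 0.50), which did not pass the edgeR test over all transcripts (adjusted p = 0.725). Sb04g005350.1, whose values are given above, had the same pattern, and its DS ratio minus its WW ratio was -3.47 (SE 0.72), which did not pass that test either (adjusted p = 0.725).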

How the results depend on the processing

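At the stricter level, 176 members were called, and the count was 22 (13 higher, 9 lower) with the 6 WW libraries alone, 38 (27 higher, 11 lower) with Benjamini-Yekutieli adjustment, 372 (227, 145) with limma, 657 (399, 258) with DESeq2 and 1319 (855, 464) for a 4-fold difference in the means with no test. Leaving out 1 library at a time gave 61 to 219, with 92, 87 and 61 without IS22330 WW library a, b or c, 62, 94 and 74 without IS20351 WW library a, b or c, and 219 without IS22330 DS library c. At an adjusted p under 0.05, 870 members were called, and the count was 542 (331 higher, 211 lower) at an RPKM minimum of 5, 354 (215, 139) with Benjamini-Yekutieli adjustment and 1462 (854, 608) with DESeq2. Leaving out 1 library at a time gave 574 to 1117, the lowest without IS20351 WW library a. The cause of these changes was not tested. RLE scaling gave 177 and 874 members at the 2 levels. For transcripts named in the text, the direction turned only for Sb09g025500.1, to 0.26 without IS22330 WW library b and 0.40 without IS20351 WW library b (with 1 library left out, -0.53 to 0.40), and for PSBR (Sb02g002830.1), to -0.14 without IS22330 WW library b (-0.14 to 3.75). Among the transcripts with the largest ratios, Sb05g022785.1 and Sb03g016083.1 missed the stricter level in 3 and 1 alternatives. No paired analysis was possible because the deposited values carry no replicate number.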

Other observations

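Lipid breakdown was also represented in the study's list, by 9 tested lipases and phosphodiesterases, with 3 ratios above and 6 below 0 on the log2 scale and a median of -1.12. None passed the edgeR, limma or DESeq2 test (0 of 9, with 0 at an unadjusted p under 0.05 in edgeR). The glycerophosphoryl diester phosphodiesterase Sb01g015000.1, of a family that releases glycerol phosphate from lipid head groups, had 52.5, 13.5 and 21.6 RPKM in IS22330 WW plants against 93.9, 26.0 and 79.3 in IS20351 WW plants (log2 ratio -1.26, SE 0.78, adjusted p = 0.546). Acyl-CoA oxidase 2 (Sb05g023970.1), of peroxisomal fatty acid breakdown, had 0.791, 1.11 and 0.450 in IS22330 WW plants against 1.59, 1.93 and 1.23 in IS20351 WW plants (log2 ratio -1.06, SE 0.68, adjusted p = 0.563), and in DS plants 3.22, 3.62 and 0.216 in IS22330 against 13.0, 12.9 and 10.8 in IS20351 (log2 ratio -2.40, SE 0.69, adjusted p = 0.0694). For acyl-CoA oxidase 2 the libraries of the genotypes did not overlap in either treatment, although neither ratio passed the test.

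A transcript named as oxygen binding, Sb09g025730.2, had a small difference in WW plants, with 79.8, 49.7 and 55.4 RPKM in IS22330 against 46.3, 38.7 and 40.6 in IS20351 (log2 ratio 0.49, adjusted p = 0.956). These WW libraries did not overlap, although the ratio did not pass the test. In DS plants it had 0, 0.645 and 898 in IS22330 against 0.384, 0.792 and 0 in IS20351, so that IS22330 DS library c alone kept reads at or above the WW level.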
